A study of Mus musculus with 10 samples.

Results

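Transcripts of 10 enzymes and regulators that break down branched-chain amino acids were compared in interscapular brown adipose tissue (iBAT) between Control mice and mice whose adipocytes lack cardiolipin synthase 1. The genes were chosen by symbol, for their place in the pathway, from the 15075 genes of the expression table, and all 10 of them were found there: the transaminases Bcat1 and Bcat2, the branched-chain ketoacid dehydrogenase subunits Bckdha, Bckdhb and Dbt, the kinase Bckdk and the phosphatase Ppm1k that regulate this complex, and the downstream enzymes Ivd, Mccc1 and Hibch. AdCKO mice carried Adipoq-Cre, which is driven by the adiponectin promoter and recombines in brown and white adipocytes but not in other cells of the tissue, together with a homozygous Crls1 allele whose exon 4 lies between loxP sites (labels: KO, knockout of CRLS1). Control mice carried the same floxed allele on both chromosomes without Cre (labels: WT, wild-type). Both groups were labelled C57BL/6, were 20 weeks old and lived at room temperature, and each of the 5 mice per group gave 1 polyA RNA library. Values are normalized reads per kb of counted exon, a scale on which levels of different genes can be set side by side.

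Leucine, isoleucine and valine are first transaminated, by the cytosolic enzyme BCAT1 or the mitochondrial enzyme BCAT2, and their ketoacids are then decarboxylated in the mitochondrial matrix by the branched-chain ketoacid dehydrogenase complex (BCKDH). BCKDH is built from the E1 subunits BCKDHA and BCKDHB, the E2 core DBT and the E3 subunit DLD, is switched off when BCKDK phosphorylates E1, and is switched on when PPM1K removes the phosphate. Each amino acid then has its own branch, ending in acetyl-CoA, acetoacetate or, through propionyl-CoA, succinyl-CoA, and brown fat is known as a tissue that takes up and oxidizes branched-chain amino acids when it makes heat.

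The libraries matched their labels. Crls1, the targeted gene, lay between 813 and 1291 normalized reads per kb in Control and between 193 and 249 in AdCKO (20.5% of the Control mean), and the brown fat marker Ucp1 reached at least 24203 in every Control library. Normalized reads summed over genes came to 7615403 to 8171138 per Control library and to 5419800 to 5843024 per AdCKO library, and the depth before normalization is unknown. Skeletal muscle transcripts were abundant in 3 AdCKO libraries: the summed level of 8 muscle markers, none of them at 0, was 101 to 130 in Control and 149 and 135 in AdCKO replicates 3 and 5, but 6189, 23623 and 9105 in AdCKO replicates 1, 2 and 4. Each member is therefore also given with AdCKO replicates 3 and 5 only, where that changes its call. The summed level of 6 brown adipocyte markers was 45938 to 68784 in Control and 14038 to 33155 in AdCKO. None of these markers was at 0, and the sum is carried mostly by Ucp1 and Cidea: 4 of the 6 were called lower, Ppargc1a was called higher and Dio2 was not called (log2 fold change 0.90). In whole tissue, fewer cells of a type and less RNA per cell cannot be told apart.

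Of the 10 members, 6 fell in AdCKO iBAT (Bckdha, Bckdk, Ppm1k, Ivd, Mccc1 and Hibch), 1 rose (Bcat1) and 3 did not pass the test (Bcat2, Bckdhb and Dbt), by limma on log2(value + 1) with a Benjamini-Hochberg adjusted p under 0.01 over all 11244 genes tested. All 10 members passed the filter on low values, a mean of at least 10 in either group, although Bcat1 passed through AdCKO alone. Over all genes tested, 28.0% were lower, 25.6% were higher and 46.4% were not called. The 6 members that fell kept between 31.1% and 55.4% of their Control mean, and the median log2 fold change of the members was -0.88, against -0.01 for all genes tested. The AdCKO values lay below every Control value for 7 members, against 26.4% of the genes tested, and above every Control value for 1 member, against 24.5%.

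**Figure D1:**
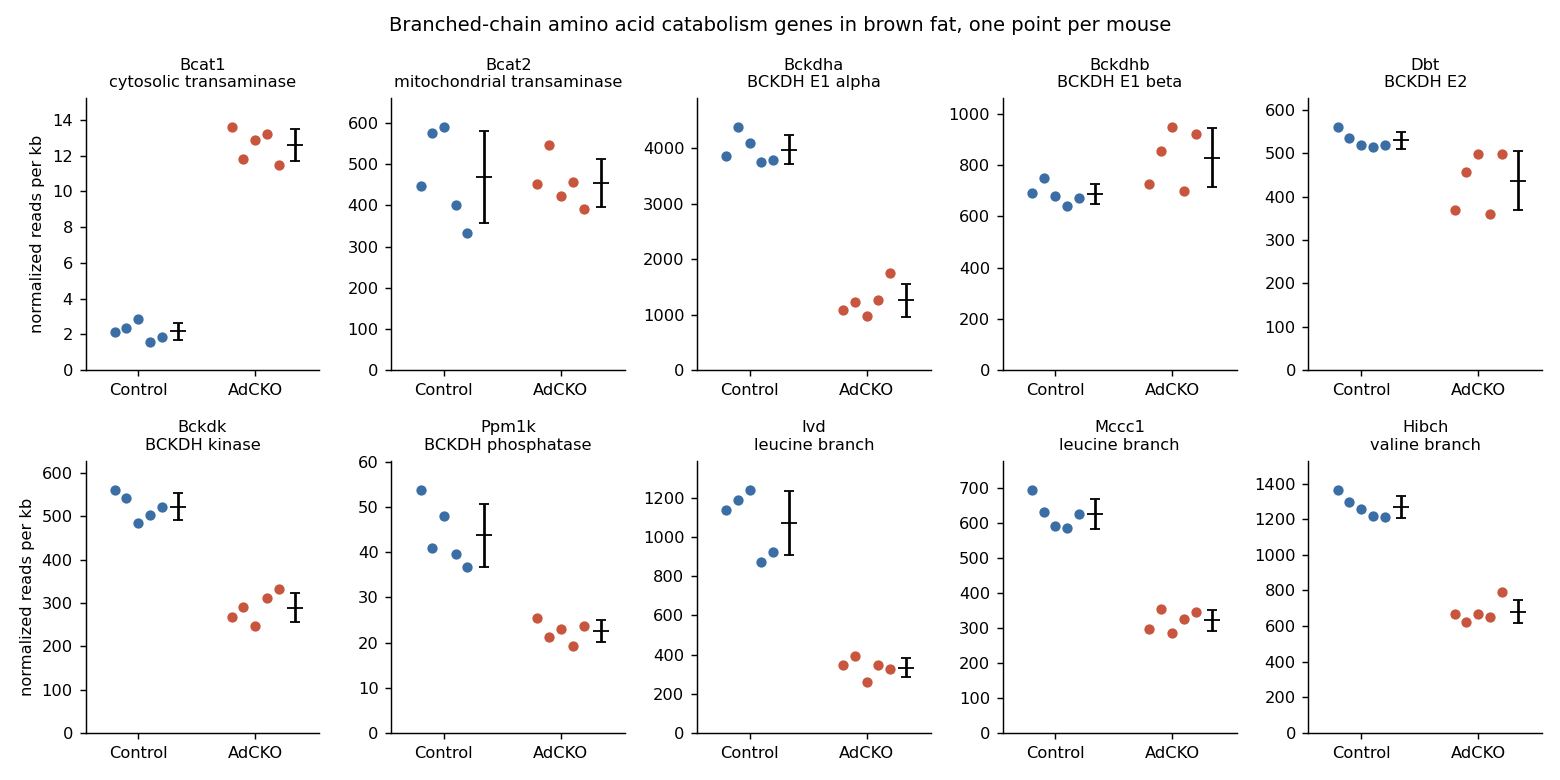
Normalized reads per kb of each of the 10 members, with 1 point per mouse (Control blue, AdCKO red) and the mean and SD of the 5 mice beside the points; each panel has its own vertical axis, which starts at 0. Bckdha, Ivd and Bcat1 show the widest gaps between groups, while the Control and AdCKO points of Bcat2 and Bckdhb overlap.

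The transaminases did not move together. Bcat1 (mm9, chr6:144942355-145024677, minus strand) encodes the cytosolic enzyme, which is most abundant in brain and in activated leukocytes. It was the lowest member in either group, at 2.12, 2.37, 2.89, 1.60 and 1.88 normalized reads per kb in Control replicates 1 to 5 and 13.6, 11.8, 12.9, 13.2 and 11.5 in AdCKO. Every AdCKO library was above every Control library, and the mean rose from 2.17 ± 0.491 to 12.6 ± 0.913 (SD, n = 5). On the log2 scale this was 2.11 (SE 0.13, limma adjusted p = 9.33e-08). Because a Control mean this low passes the filter only with a rise, the call of Bcat1 adds nothing to the count above, and a fold change on this scale understates the change of a low gene.

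Bcat2 (chr7:52825523-52845080, plus strand), the mitochondrial transaminase, was found at 448, 576, 590, 401 and 332 normalized reads per kb in Control and at 452, 546, 422, 456 and 391 in AdCKO. The AdCKO range lies within the Control range. The log2 fold change was -0.02 with a 95% interval from -0.36 to 0.31 (limma adjusted p = 0.898), so a fall as large as that of Bckdha or Ivd lies outside the interval. With AdCKO replicates 3 and 5 only it was -0.17 (limma adjusted p = 0.494). The annotated exons of Bcat2 share 622 bases with an antisense long noncoding RNA, 0610005C13Rik, and those of Bcat1 share 337 with the antisense Gm17263. Whether these bases lie in the counted exons was not checked. The kit named in the labels is not described as keeping strand, so reads from any that do cannot be told apart.

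Within a library, Bcat1 amounted to 0.00399 to 0.00566 of the Bcat2 level in Control and to 0.0217 to 0.0306 in AdCKO. Bcat2 was thus 217 ± 30.0 times as high as Bcat1 in Control and 36.1 ± 5.65 times in AdCKO (SD, n = 5). The log2 ratio differed by 2.14 (two-sided exact permutation test, p = 0.0079; adjusted over 4 pairs of members, p = 0.011), and 5 mice against 5 cannot give a smaller p. As Bcat2 was not called and Bcat1 passed the filter through AdCKO alone, this ratio restates the rise of Bcat1 and is no separate result. Macrophage transcripts also rose: all 10 macrophage markers were called higher, and none was at 0. Their sum was 549 to 1727 in Control and 7039 to 9476 in AdCKO. Within the groups, the order of the libraries did not match throughout. Control replicate 3 had the highest Control sum and the highest Control level of Bcat1. AdCKO replicate 2 had the highest sum (9476) but Bcat1 at 11.8, and replicate 1, with a sum of 7485, had the highest Bcat1 (13.6). The part of macrophage transcripts in the rise of Bcat1 was not tested. Over the 10 libraries, the genes outside the pathway set whose log2 levels were most like those of Bcat1 were AF251705, Ms4a7 and Cd84 (Pearson r = 0.998, 0.997 and 0.996). These 10 points share the contrast between groups, and 952 tested genes had an r over 0.95 with Bcat1.

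The E1 and E2 subunits of BCKDH split. Bckdha (chr7:26414871-26443780, minus strand), the E1 alpha subunit that carries the regulatory phosphorylation, was the highest member in either group. Its levels were 3851, 4378, 4083, 3753 and 3794 normalized reads per kb in Control and 1083, 1226, 968, 1259 and 1747 in AdCKO. The groups are far apart, with AdCKO replicate 5 nearest to Control. AdCKO kept 31.6% of the Control mean (log2 fold change -1.69, SE 0.13, limma adjusted p = 4.93e-07).

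Bckdhb (chr9:83842388-84017847, plus strand), the E1 beta subunit that pairs with BCKDHA, stood at 691, 750, 680, 641 and 670 in Control and at 725, 853, 947, 697 and 921 in AdCKO. The highest AdCKO libraries were replicates 3 and 5, and the lowest lay within the Control range. The mean was 686 in Control and 829 in AdCKO. The log2 fold change of 0.26 had a 95% interval from 0.06 to 0.47 and missed the threshold (limma adjusted p = 0.0269). With AdCKO replicates 3 and 5 only it was 0.45 and passed (limma adjusted p = 0.00278), as it did with quantile normalization (0.49, limma adjusted p = 0.000719) and with the same total in every library (0.74, limma adjusted p = 1.14e-05). Of all genes tested, 18.8% were called higher with AdCKO replicates 3 and 5 only and 61.4% with equal totals. Equal totals moved the median gene up by 0.48 and quantile normalization moved it by -0.08, so the call with equal totals goes with the scaling of all genes. The counted transcript starts 23.6 kb downstream of the first exon that GENCODE annotates, so that exon (chr9:83818757-83818966, 210 bases) is not part of the value.

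Dbt (chr3:116215997-116252899, plus strand), the E2 core onto which the other subunits assemble, was measured at 560, 534, 519, 515 and 518 in Control and at 369, 456, 498, 360 and 499 in AdCKO. All AdCKO libraries were below all Control libraries, replicates 3 and 5 by little. The log2 fold change of -0.29 had a 95% interval from -0.51 to -0.07 and did not pass the threshold (limma adjusted p = 0.0212). It was -0.08 with AdCKO replicates 3 and 5 only (limma adjusted p = 0.445) and 0.19 with the same total in every library (limma adjusted p = 0.0915), so its direction depends on the scaling. Dld, the E3 subunit that BCKDH shares with pyruvate and 2-oxoglutarate dehydrogenase, fell and spanned 3829 to 4220 in Control but 1790 to 2404 in AdCKO (log2 fold change -0.97, limma adjusted p = 3.34e-06).

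The subunits of the complex therefore stood in other proportions in AdCKO mRNA. Bckdhb was 0.179, 0.171, 0.167, 0.171 and 0.177 of the Bckdha level in Control, a spread of 0.00505 (SD) around 0.173, and 0.670, 0.696, 0.979, 0.553 and 0.527 in AdCKO. The ratio was tight in Control and both higher and more variable in AdCKO, where it came close to 1 in replicate 3. The log2 ratio rose by 1.95 (exact two-sided permutation test, p = 0.0079, adjusted p = 0.011). Dbt was 0.122 to 0.145 of the Bckdha level in Control and 0.286 to 0.515 in AdCKO, and this log2 ratio rose by 1.40 (exact two-sided permutation test, p = 0.0079, adjusted p = 0.011). A ratio shows unequal change of its members only.

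**Figure D2:**
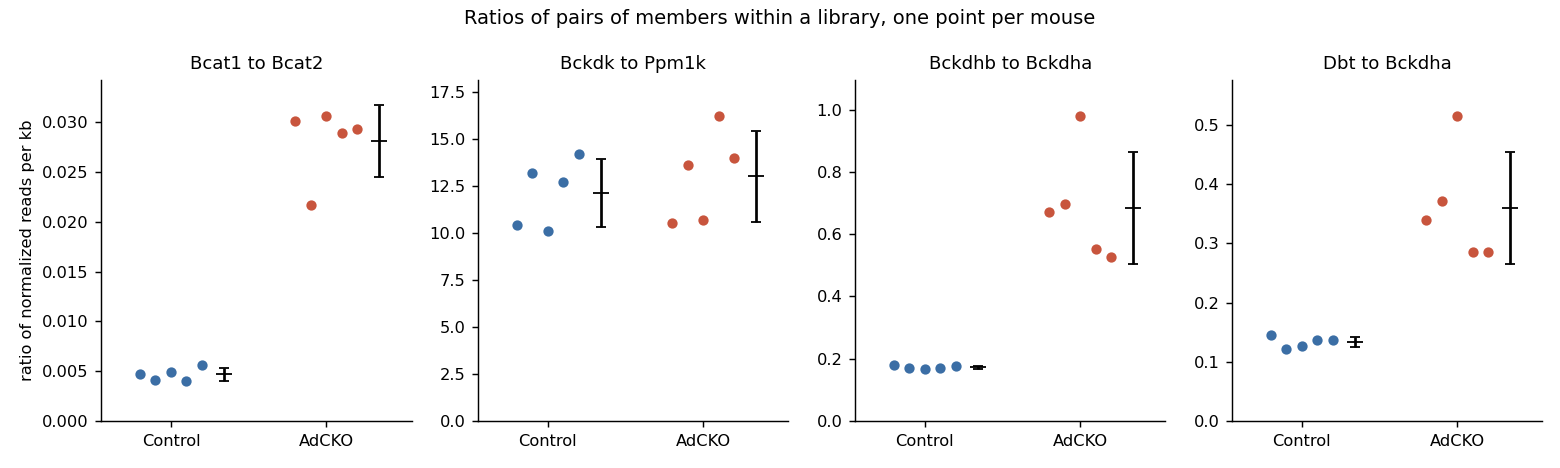
Ratios of normalized reads per kb for the 4 pairs of members, with 1 point per mouse (Control blue, AdCKO red) and the mean and SD of 5 mice beside the points; axes start at 0. Bcat1 to Bcat2, Bckdhb to Bckdha and Dbt to Bckdha lie apart between groups, and Bckdk to Ppm1k overlaps.

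The kinase and the phosphatase of BCKDH fell alike. Bckdk (chr7:135047587-135053178, plus strand), which inactivates the complex, was at 561, 542, 484, 502 and 522 normalized reads per kb in Control and at 267, 290, 246, 311 and 332 in AdCKO. Ppm1k (chr6:57456496-57485420, minus strand), which reactivates it, was much lower, at 53.8, 41.0, 47.9, 39.5 and 36.7 in Control and at 25.5, 21.3, 23.1, 19.2 and 23.7 in AdCKO. Neither gene had an AdCKO library within the Control range.

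The log2 fold changes were -0.85 for Bckdk (SE 0.08, limma adjusted p = 2.83e-06) and -0.92 for Ppm1k (SE 0.11, limma adjusted p = 1.70e-05). The kinase exceeded the phosphatase 12.1 ± 1.79 times in Control and 13.0 ± 2.42 times in AdCKO (SD, n = 5), and no difference in the log2 ratio was detected (0.06, exact two-sided permutation test, p = 0.65, adjusted p = 0.65). With quantile normalization, which moved Ppm1k further down than Bckdk, the difference was 0.47 (exact two-sided permutation test, p = 0.0159). The result for this ratio thus depends on whether quantile normalization is used, which can move genes of the same library by different factors.

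The bases before the counted starts of Bckdha, the member with the lowest log2 fold change, and of the regulators Bckdk and Ppm1k are shown because Bckdha fell further than the regulators of its complex, and because no annotated exon of GENCODE lies in these windows. Bckdha (-1.69) was lowest by little, as Ivd was at -1.68 and kept less of its Control mean (31.1% against 31.6%). The window of Bckdhb holds no annotated exon either, but it is not shown, and its counted start lies 23.6 kb downstream of the annotated first exon. No window, shown or not, was searched for repeat sequence, so the bases shown need not be unique in the genome. Each window holds the 250 bases upstream of the start on the gene's own strand, 5′ to 3′, read from mm9, with CCAAT boxes on either strand (CCAAT or ATTGG) in capitals. They lie at chr7:26443781-26444030 (minus strand), chr7:135047337-135047586 (plus strand) and chr6:57485421-57485670 (minus strand).
Bckdha: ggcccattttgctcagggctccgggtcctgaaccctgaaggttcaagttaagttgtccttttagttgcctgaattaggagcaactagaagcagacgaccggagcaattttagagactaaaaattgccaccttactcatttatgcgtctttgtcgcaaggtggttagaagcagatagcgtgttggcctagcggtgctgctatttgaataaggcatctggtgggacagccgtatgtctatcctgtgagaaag
Bckdk: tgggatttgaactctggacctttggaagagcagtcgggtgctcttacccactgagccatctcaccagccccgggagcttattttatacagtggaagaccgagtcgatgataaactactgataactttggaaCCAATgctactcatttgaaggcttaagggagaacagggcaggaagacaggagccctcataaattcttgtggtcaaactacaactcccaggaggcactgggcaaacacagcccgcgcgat
Ppm1k: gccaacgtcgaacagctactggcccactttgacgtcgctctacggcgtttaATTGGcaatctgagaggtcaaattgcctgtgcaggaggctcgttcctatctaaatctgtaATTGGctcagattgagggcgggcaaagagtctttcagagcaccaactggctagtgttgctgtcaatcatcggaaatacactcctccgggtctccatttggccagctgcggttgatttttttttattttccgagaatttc
The Bckdha window held no CCAAT box, the Bckdk window held 1 and the Ppm1k window held 2.

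Windows of the same length were searched for all 15075 genes, and 35.3% of them held CCAAT on either strand. Of the 10 members, 6 did: Ivd with 4 boxes, Mccc1 with 3, Ppm1k with 2, and Bcat1, Dbt and Bckdk with 1 each. Members with a box included 4 that fell, 1 that rose and 1 that was not called, and members without one included 2 that fell and 2 that were not called. None of the 10 windows held the estrogen-related receptor element AAGGTCA (2.81% of all windows), the amino acid response element core TGATGNAA (2.03%), the nuclear respiratory factor 1 element GCGCATGC (3.91%) or the E-box CACGTG (7.87%), each on either strand. The counts include the Bckdhb window, far from the annotated first exon, and the Bcat2 window, all 250 bases of which are exon of the antisense 0610005C13Rik. Base composition was not matched. The median over all windows was 59.2% GC, and every member but Hibch (68.8%) lay below it, from 36.4% for Bckdhb to 56.8% for Dbt. The counts of the members can therefore not be read against the shares of all windows. The motifs were chosen after the expression values were seen, and a match of letters is not a binding site.

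The downstream members fell in every branch that they represent. Ivd (chr2:118687736-118707093, plus strand), isovaleryl-CoA dehydrogenase of the leucine branch, was at 1138, 1189, 1242, 873 and 924 normalized reads per kb in Control and at 345, 391, 260, 349 and 325 in AdCKO. It kept 31.1% of its Control mean (log2 fold change -1.68, SE 0.13, limma adjusted p = 3.03e-07), a fall of about the size of that of Bckdha. No AdCKO library came near the lowest Control value.

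Mccc1 (chr3:35858231-35899600, minus strand), the alpha subunit of methylcrotonyl-CoA carboxylase, acts after IVD. It was at 694, 632, 590, 584 and 624 in Control and at 296, 354, 286, 324 and 346 in AdCKO (log2 fold change -0.96, SE 0.08, limma adjusted p = 5.74e-07). Its annotated exons share 198 bases with the antisense A330050B17Rik. Hibch (chr1:52901890-52977704, plus strand), the hydrolase that frees 3-hydroxyisobutyrate in the valine branch, was at 1365, 1296, 1259, 1217 and 1214 in Control and at 668, 625, 665, 650 and 793 in AdCKO (log2 fold change -0.90, SE 0.08, limma adjusted p = 6.89e-07). In both genes the groups lay far apart with little spread within each.

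By level per kb, the order in Control was Bckdha, Hibch, Ivd, Bckdhb, Mccc1, Dbt, Bckdk, Bcat2, Ppm1k and Bcat1. Neighbours whose 5 values overlapped were Hibch and Ivd, Bckdhb and Mccc1, Dbt and Bckdk, and Bckdk and Bcat2. In AdCKO the order was Bckdha, Bckdhb, Hibch, Bcat2, Dbt, Ivd, Mccc1, Bckdk, Ppm1k and Bcat1, with overlap between Bckdhb and Hibch and between each neighbouring pair from Bcat2 to Bckdk. Ivd moved from rank 3 to rank 6 and Bcat2 from rank 8 to rank 4. Bckdha stood above 99.2% of all 15075 genes by its mean in Control and above 98.1% in AdCKO, and Ppm1k above 53.4% and 37.4%.

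The other genes of the pathway, 25 in 7 lists set by function, were mostly lower among the enzymes and mixed among the transporters. Of the 19 other enzymes and cofactor proteins, 18 fell (28.0% of all genes tested were lower), to between 30.6% and 58.4% of the Control mean, with log2 fold changes from -1.71 to -0.78, and each of these 18 had all AdCKO values below all Control values (26.4% of all genes tested). Every gene of the leucine (3 genes), isoleucine (3) and valine (4) lists fell, with median log2 fold changes of -1.12, -1.33 and -1.46. Mccc2, the partner subunit of MCCC1, was at 498 to 590 in Control and at 151 to 186 in AdCKO (log2 fold change -1.66, limma adjusted p = 1.56e-08). Acat1, the thiolase that ends the isoleucine branch and also acts in ketone metabolism, was at 2348 to 2865 in Control and at 681 to 935 in AdCKO (-1.71, limma adjusted p = 3.45e-08).

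In the valine branch, Aldh6a1, methylmalonate semialdehyde dehydrogenase, had a log2 fold change of -1.67 (limma adjusted p = 3.48e-07). Its annotated exons share 99 bases with 2900006K08Rik on the other strand. All 4 genes that carry propionyl-CoA to succinyl-CoA fell, among them the carboxylase subunits Pcca and Pccb (-1.50 each; limma adjusted p = 4.16e-08 and 3.15e-07) and the cobalamin-dependent mutase Mut (-1.28, limma adjusted p = 3.77e-08). Of the 4 genes that prepare cobalamin, Mmaa, Mmab and Mmachc fell. Mmadhc did not pass the test (434 to 450 in Control, 366 to 468 in AdCKO; log2 fold change -0.13, 95% interval -0.29 to 0.02, limma adjusted p = 0.117).

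The 6 transporter genes gave 3 rises (25.6% of all genes tested were higher), 1 fall and 2 without a call. Slc7a5, the light chain of the exchanger LAT1 that carries large neutral amino acids across the plasma membrane, was at 3.51 to 3.89 in Control and 36.9 to 46.5 in AdCKO (log2 fold change 3.12, limma adjusted p = 4.38e-10). Slc3a2, its heavy chain, was at 128 to 337 and 389 to 678 (1.34, limma adjusted p = 0.000228), and Slc7a8, the light chain of LAT2, at 7.39 to 10.5 and 46.0 to 62.0 (2.56, limma adjusted p = 7.66e-09). Slc7a5 and Slc7a8 passed the filter through AdCKO alone, as Bcat1 did, so their calls could only be rises and add nothing to this count.

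Slc25a44, a mitochondrial carrier that imports branched-chain amino acids in brown fat, went the other way and spanned 481 to 750 in Control but 210 to 307 in AdCKO (log2 fold change -1.17, limma adjusted p = 9.06e-06). The plasma membrane carriers Slc43a1 (log2 fold change 0.31, 95% interval -0.12 to 0.74) and Slc43a2 (-0.01, 95% interval -0.14 to 0.12) did not pass. With the same total in every library, Mmadhc, Slc43a1 and Slc43a2 were called higher (log2 fold changes 0.35, 0.77 and 0.47). No other gene of these 25 changed its call. This scaling called 61.4% of all genes tested higher and moved the median gene up by 0.48. The values of Mmadhc and Slc43a2 were no larger than that shift, and the value of Slc43a1 was larger.

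**Figure D3:**
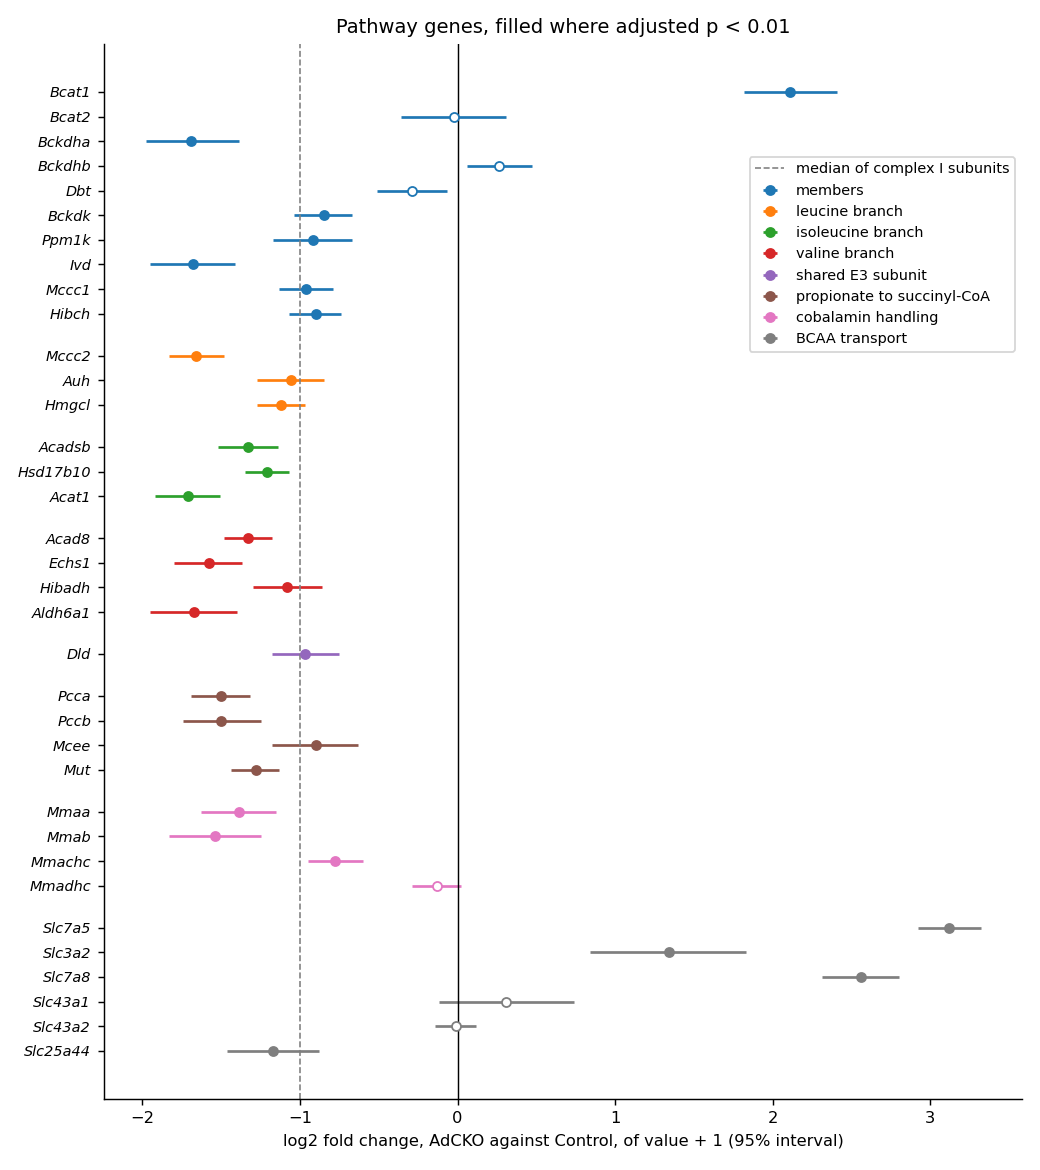
Log2 fold change of value + 1 in AdCKO against Control for the 10 members and the 25 other genes of the pathway, with the limma 95% interval; filled points passed an adjusted p of 0.01, and the dashed line is the median of 36 complex I subunits. The filled enzymes other than Bcat1 lie left of 0, as does Slc25a44, while Bcat1, Slc7a5, Slc3a2 and Slc7a8 are filled on the right and the open points (Bcat2, Bckdhb, Dbt, Mmadhc, Slc43a1 and Slc43a2) lie nearer to 0.

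Transcriptional regulators known to act on these genes differed in direction. Klf15, a Kruppel-like factor that activates amino acid catabolism genes in several tissues, was at 262 to 333 normalized reads per kb in Control and 62.5 to 152 in AdCKO (log2 fold change -1.56, limma adjusted p = 1.75e-05). Ppargc1a, the PGC-1alpha coactivator, was at 83.9 to 135 and 247 to 901, highest in AdCKO replicates 3 and 5 (2.24, limma adjusted p = 3.70e-05). Esrra, the estrogen-related receptor alpha that PGC-1alpha coactivates, was at 685 to 1053 and 435 to 725 (-0.52, limma adjusted p = 0.0105) and did not pass.

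Because most transcripts of mitochondrial metabolism were lower in AdCKO, the members were also measured against the 36 complex I subunits, all 36 of which fell (log2 fold changes from -1.60 to -0.46, median -1.0). On this scale each library's mean log2 level of the subunits was subtracted, and 0 means a change equal to theirs. Bckdha and Ivd remained lower, by -0.68 (SE 0.13, limma adjusted p = 0.000114) and -0.67 (SE 0.16, limma adjusted p = 0.00111). These are 2 of 10 members, where 2.23% of all genes tested were lower on this scale. Of the complex I subunits themselves, 7 of 36 were called lower on it and 8 higher. Of TCA cycle genes, 9 of 17 were lower and 3 higher, and of fatty acid beta-oxidation genes, 10 of 18 were lower and 1 higher. Lower calls relative to complex I were thus not particular to the members. With TCA cycle genes as the offset in place of complex I, the call of Ivd was lost (-0.49, limma adjusted p = 0.0132) and that of Bckdha was kept (-0.50, limma adjusted p = 0.00127).

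The regulators and the remaining downstream members did not differ from complex I beyond their error. The values relative to complex I were 0.16 for Bckdk (95% interval -0.12 to 0.43) and 0.09 for Ppm1k (-0.26 to 0.44). They were 0.05 for Mccc1 (-0.22 to 0.32) and 0.11 for Hibch (-0.13 to 0.34). None of these 4 members was called, while only 12.9% of all genes tested were not called on this scale. Bcat1 (3.12), Bckdhb (1.27), Bcat2 (0.99) and Dbt (0.72) were called higher relative to complex I, 4 of 10 members, while 84.9% of all genes tested were, since the median gene lies at 1.00 on this scale. Bcat1 passed the filter through AdCKO alone, so its call could only be a rise and adds nothing to this count. The share over all genes follows from the offset. Of the mitochondrial lists, 8 of 36 complex I subunits, 3 of 17 TCA cycle genes and 1 of 18 fatty acid beta-oxidation genes were higher on this scale. Among the 19 other enzymes, 9 were lower relative to complex I, 1 was higher and 9 were not called. The genes outside the pathway set most like Bckdha over the 10 libraries were Adck3, Tmem143 and Pmpcb (Pearson r = 0.998, 0.997 and 0.997), with 1005 tested genes at an r over 0.95.

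**Figure D4:**
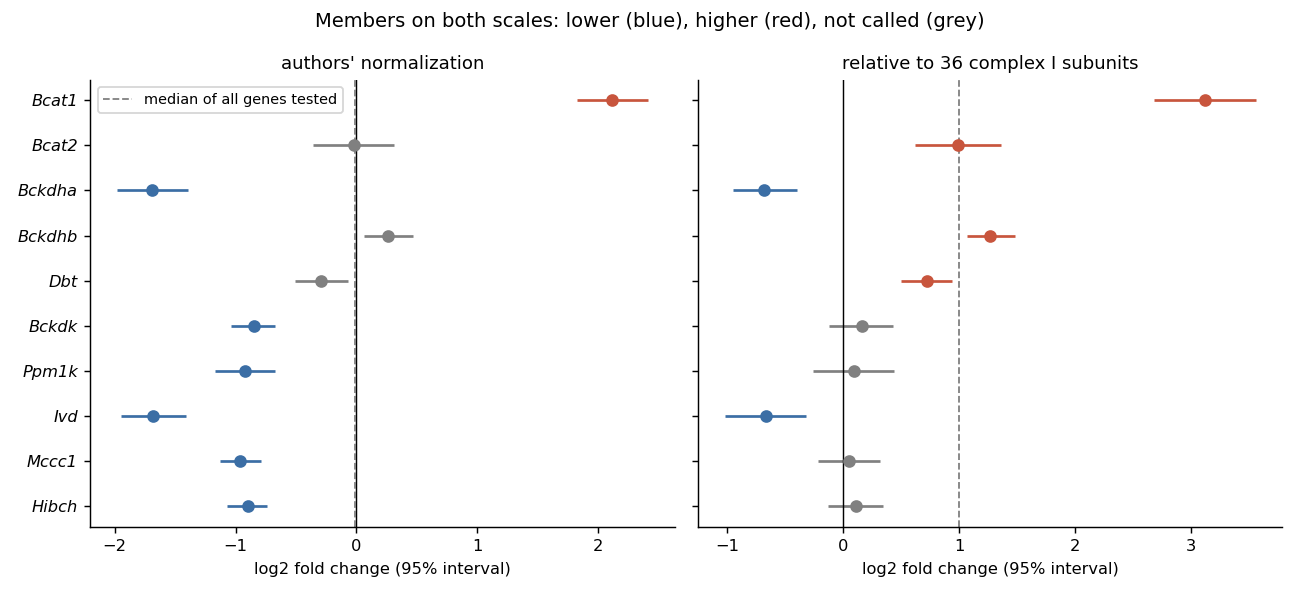
Log2 fold change of each member with its 95% interval, on the scale of the deposited values (left) and after subtracting the mean of 36 complex I subunits in each library (right); blue is lower, red higher and grey not called, and the dashed line is the median of all genes tested. Bckdha and Ivd lie below 0 on both scales, and Bckdk, Ppm1k, Mccc1 and Hibch lie near 0 on the right.

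AdCKO mice differed among themselves, and not in 1 order for all members. Replicate 5 had the highest AdCKO level of Bckdha, Dbt, Bckdk and Hibch and of 14 of the 19 other enzymes, and it also had the highest sum of brown adipocyte markers among AdCKO libraries (33155). Replicate 4, with the lowest sum (14038), had the lowest AdCKO levels of Bckdhb, Dbt and Ppm1k. Other libraries did not follow this order: replicate 3 came next to replicate 5 by that sum (26499) but had the lowest AdCKO levels of Bckdha, Bckdk, Ivd and Mccc1, and replicate 5 had the lowest of Bcat1 and Bcat2. The part of these markers in the members' levels was not tested. Fibroblast markers (5 of 5 called higher, sum 886 to 1168 in Control and 3571 to 5033 in AdCKO) also moved with the groups, lymphocyte markers were highest in AdCKO replicate 1 (sum 247, against 38.5 to 71.5 in the other 9 libraries; 1 of 5 tested markers higher), and the sums of endothelial markers overlapped (1303 to 1639 and 1348 to 1833; 1 of 5 higher). White adipocyte markers overlapped in sum (5737 to 7882 and 4812 to 7398), with 3 of 5 higher and 1 lower. That sum is carried mostly by Adipoq (5345 to 7079 and 3324 to 5032), the marker called lower. Retn, Nnmt and Agt were called higher, and Lep was not called.

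**Figure D5:**
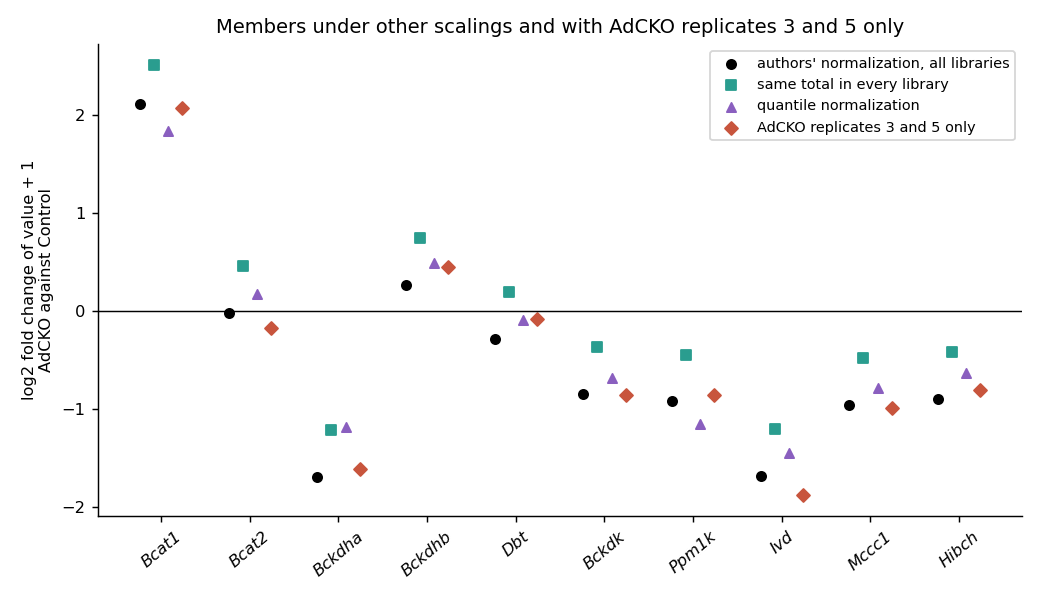
Log2 fold change of each member with the deposited values (black), the same total in every library (green), quantile normalization (purple) and AdCKO replicates 3 and 5 only (red). The 6 members that fell lie below 0 and Bcat1 above 0 in all 4, while Bcat2 and Dbt lie on either side of 0.

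With AdCKO replicates 3 and 5 only, the members called lower were again 6 and the members called higher were 2, Bcat1 and Bckdhb, against 19.7% lower and 18.8% higher of the 11097 genes tested in that setting. Bcat1 passed the filter through AdCKO alone here too, so its call adds nothing to this count. Muscle markers were low but not absent in AdCKO replicates 3 and 5, and Acta1, the skeletal actin, was at 93.3 and 74.5 in them against 39.4 to 56.1 in Control. The log2 fold changes were -1.61 for Bckdha, -1.87 for Ivd, -0.99 for Mccc1, -0.86 for Bckdk, -0.86 for Ppm1k and -0.80 for Hibch. Scaling every library to the same total shifted the median gene up by 0.48 on the log2 scale, and the calls over all genes went from 3152 lower and 2879 higher to 1094 lower (9.57%) and 7013 higher (61.4%). Under it the 6 members that fell were still called lower, with log2 fold changes from -1.21 for Bckdha to -0.37 for Bckdk.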

How the data were processed

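RNA from iBAT of 5 Control and 5 AdCKO mice was analysed, grouped by the sample labels. The authors prepared polyA libraries (TruSeq 2), aligned them with STAR (mm9), used iRNA-seq to count reads in the exons of 1 RefSeq transcript per gene, and scaled the counts with DESeq2. The deposited unit is a signal, normalized reads per kb, and not a count. The transformation that moderated it is not given in the sources used here: no value is 0 (smallest 0.0532), and whole reads could not be recovered from the low ones. Depth is therefore unknown, and precision is given as the spread between mice. The authors' columns of log2 fold change and adjusted p-value, and their lists of called genes, were not used.

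A pseudocount of 1 was added before log2, and genes whose mean reached 10 in Control or AdCKO (11244) were tested with limma 3.58.1 in R 4.3.3 (eBayes with trend, two-sided, Benjamini-Hochberg over all tested genes, threshold 0.01). The paper's DESeq2 test needs counts. On simulated data with 200 of 11244 genes changed, 90 of 100 genes changed by 1 on the log2 scale and 52 of 100 changed by 0.5 were called, with 0 unchanged genes called. In the real data far more genes were called (3152 lower and 2879 higher), so these rates need not hold there. For values relative to complex I, the mean log2 level of 36 subunits was subtracted from each library. Ratios of 4 pairs of members were compared as log2 ratios of value + 1 with exact permutation tests (scipy 1.17.1), adjusted over the pairs.

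Named genes are the members, the other genes of the pathway, its regulators, Crls1, cell type markers and, for the members with the highest and the lowest log2 fold change, the 3 most correlated genes. The members and lists were chosen with earlier results of these data known. Alternatives tried were pseudocounts of 0.1 and 10, no filter or a mean of at least 1, the same total in every library, quantile normalization, limma without the trend, a replicate block, leaving out single libraries, a threshold of 0.05, and offsets from fatty acid oxidation or TCA cycle genes. AdCKO replicates 3 and 5 only, and the motif search, were added after seeing the data. Upstream windows were read from the mm9 genome, and overlaps from GENCODE vM1.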

Additional observations from a re-analysis of the deposited data

Results flagged for a closer look

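Values within a group of 5 mice were examined for a single library far from the rest, in 28 sets (the 10 members and the 4 ratios, in each group). In 2 sets the gap to the nearest library exceeded 0.71 of the whole range, where chance gives about 1 in 20 sets. Hibch was at 793 normalized reads per kb in AdCKO replicate 5 and at 625 to 668 in the other 4 AdCKO libraries, a gap of 0.742 of the range. Without that library the fall of Hibch was -0.96 on the log2 scale. The ratio of Bcat1 to Bcat2 was 0.0217 in AdCKO replicate 2 and 0.0289 to 0.0306 in the other 4, a gap of 0.801 of the range. That library had the highest AdCKO level of Bcat2 (546) and the highest sum of skeletal muscle markers (23623), and the part of muscle RNA in this ratio was not tested.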

How the results depend on the processing

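Of 590 recomputed values, 562 kept their direction, their side of the threshold and, for counts, stayed within 1.5 times. The members called lower numbered 6 or 7 and the other pathway genes called lower 19 under every alternative. The members called higher went from 1 to 2 with the same total in every library, quantile normalization, AdCKO replicates 3 and 5 only and an adjusted p under 0.05, and ran from 1 to 2 with single libraries left out, 2 without AdCKO replicate 4. Equal library totals gave 1094 genes lower and 7013 higher over all genes, and under them other pathway genes called higher rose from 3 to 6, Bcat2 reversed to 0.46 and Dbt to 0.19 on the log2 scale; Bcat2 was at 0.17 with quantile normalization. With single libraries left out, Bcat2 ran from -0.14 to 0.07, Dbt from -0.34 (limma adjusted p = 0.00932, without AdCKO replicate 5) to -0.23, and Bckdhb from 0.21 to 0.32 (limma adjusted p = 0.00835, without AdCKO replicate 4). Relative to complex I, the members called lower fell from 2 to 1 with an offset from TCA cycle genes, where Ivd was at -0.49 (limma adjusted p = 0.0132). On that scale AdCKO replicates 3 and 5 only gave -0.03 for Bckdk, -0.03 for Ppm1k and -0.15 for Mccc1, and single libraries left out gave -0.01 to 0.14 for Mccc1. The log2 ratio of Bckdk to Ppm1k was -0.12 with a pseudocount of 10, 0.47 with quantile normalization, and -0.02 to 0.13 with single libraries left out; the other 3 ratios kept their direction, with an exact p of 0.0159 without any 1 library, the smallest that 4 mice against 5 allow. Replicate numbers did not pair the mice (correlations of deviations from -0.27 to 0.10), and with the replicate number as a block 6 members were called lower and 1 higher, 2 lower and 4 higher relative to complex I, and 2838 genes lower and 2592 higher overall. The causes of these shifts were not tested. Depth is unknown, so counting error is not covered.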
